A study of Mus musculus with 6 samples.

Results

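The Hes and Hey genes encode basic helix-loop-helix-Orange transcriptional repressors, and 9 of them (Hes1, Hes2, Hes3, Hes5, Hes6, Hes7, Hey1, Hey2 and Heyl) were followed in the RNA-Seq table of motor neurons (MNs) derived from mouse embryonic stem cells (mESCs). They are 9 of 34433 gene symbols and were chosen by name, 6 as Hes and 3 as Hey genes. The study had 6 samples, 3 per genotype. Hb9 control MNs came from the Hb9 mESC line, which the labels call wildtype and the study's methods describe as SMN2+/+;mSmn+/+. A2 SMA MNs came from the A2 line, which has the genotype SMN2+/+;mSmn-/- and is a model of severe spinal muscular atrophy (SMA). Both lines have the FVB/N background and carry the human SMN2 transgene and an eGFP reporter under the promoter of Hb9. Embryoid bodies of both were treated for 5 days with 1 µM retinoic acid and 1 µM Smoothened agonist, and GFP-positive cells were collected by FACS. Each genotype is a single mESC line, so genotype and line cannot be told apart.

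Hes and Hey proteins are best known as the immediate output of Notch signaling. When a ligand on a neighbouring cell binds Notch, the intracellular domain of the receptor is released, joins the DNA-binding protein Rbpj and activates Hes1, Hes5 and the Hey genes. The products of Hes1 and Hes5 recruit Groucho corepressors and silence proneural genes such as Neurog2, which keeps neural progenitors of the spinal cord undifferentiated. Hes6 is the exception, being expressed in differentiating neurons and opposing Hes1. Hes7 drives the segmentation clock of the presomitic mesoderm, Hes3 is found in early neural tissue, and Hey1, Hey2 and Heyl also act in the heart and blood vessels.

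Of the 9 genes, 7 had at least 2-fold less transcript in A2 SMA than in Hb9 control MNs, and none had at least 2-fold more. Hes5 had 187-fold less and Hes1 only 2.02-fold less. The value for Hes5 rests on a level under 1 FPKM in A2 SMA MNs, and with a pseudocount of 1 FPKM its log2 ratio was -5.62 in place of -7.55. By comparison, 24.3% of the 21564 gene symbols above 0 FPKM in both genotypes were lower by at least 2-fold. FPKM is a level, counting fragments per kilobase of exon and scaled to the mapped fragments of a library. The table gives 1 FPKM value per genotype, pooled by the authors over 3 samples, so no value below has an SD or a test, and a gene is called lower or higher only by the size of its fold difference. The table does not give the reads behind a value. In sorted bulk cells, fewer cells that express a gene and less RNA per cell cannot be told apart.

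The sequences ahead of the start site are shown first because Hes5 and Hes6, both abundant in Hb9 control MNs, differ in their matches to the core letters bound by Rbpj (GTGGGAA, or TTCCCAC when read from the other strand). RefSeq promoter sequences of build GRCm38.p6 were matched for 4 of the 9 genes (Hes5, Hes6, Hes7 and Hey2). The 250 bases before the start are printed 5′ to 3′ on the strand of the gene, with whole matches to the core in capitals. They lie at chr4:154960673-154960922 (plus strand) for Hes5, chr10:30842784-30843033 (minus strand) for Hey2, chr11:69120203-69120452 (plus strand) for Hes7 and chr1:91413223-91413472 (minus strand) for the downstream start of Hes6.
Hes5: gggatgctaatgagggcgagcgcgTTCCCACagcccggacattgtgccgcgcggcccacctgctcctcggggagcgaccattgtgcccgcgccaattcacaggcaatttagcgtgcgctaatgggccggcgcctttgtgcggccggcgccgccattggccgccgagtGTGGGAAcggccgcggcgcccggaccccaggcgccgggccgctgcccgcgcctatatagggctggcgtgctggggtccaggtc
Hey2: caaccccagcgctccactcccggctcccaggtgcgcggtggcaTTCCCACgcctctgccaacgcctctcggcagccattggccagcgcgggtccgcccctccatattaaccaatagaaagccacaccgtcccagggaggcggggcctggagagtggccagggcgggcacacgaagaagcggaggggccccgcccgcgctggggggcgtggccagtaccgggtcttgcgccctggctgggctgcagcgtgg
Hes7: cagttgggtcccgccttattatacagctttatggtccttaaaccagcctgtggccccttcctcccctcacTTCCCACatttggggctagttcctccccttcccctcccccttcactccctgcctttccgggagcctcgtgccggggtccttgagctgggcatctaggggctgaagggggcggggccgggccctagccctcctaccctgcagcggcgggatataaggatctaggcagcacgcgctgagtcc
Hes6: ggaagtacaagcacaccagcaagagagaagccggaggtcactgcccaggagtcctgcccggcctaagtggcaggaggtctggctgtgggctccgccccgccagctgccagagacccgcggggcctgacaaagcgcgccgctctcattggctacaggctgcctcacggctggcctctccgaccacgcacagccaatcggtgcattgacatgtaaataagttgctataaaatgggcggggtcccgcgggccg

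The Hes5 promoter held the core in both orientations, with first bases 226 and 83 bp before the start. Hey2 also had 2 matches, one 207 bp before the start and another that begins 4 bp before it and runs across it. Hes7 had 1 match, 180 bp before the start. Neither of the 2 annotated starts of Hes6 had any. Among 32851 promoters of the same 300 bases (250 before and 50 after the start), 6.38% held at least 1 match on either strand and 0.256% held at least 2. Hes proteins themselves bind the N box (CACNAG) and the class C site (CACGNG), which overlap where a stretch fits both. The Hes7 window held 1 N box and 2 class C sites, 1 of them the same stretch. Hes6 had 1 class C site at the upstream start and 2 N boxes at the downstream start. The windows of Hes5 and Hey2 had neither. At least 1 N box occurred in 42.5% of all promoters and at least 1 class C site in 27.5%. These matches describe the reference sequence and were not measured in the cells.

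Hes5, an effector of Notch in neural progenitors, had the lowest log2 ratio of the 9 genes. Its locus spans 154334879 to 154336480 on chromosome 4 (NCBI m37, the build of all gene positions here). Hes5 had 65.3 FPKM in control and 0.349 FPKM in SMA MNs, a log2 ratio of -7.55. Its level moved from the 82.4 percentile of the 15784 gene symbols with at least 1 FPKM in either genotype to the 2.24 percentile. Only 2 of these symbols, Gm14204 and Gm14205, had a lower log2 ratio, and they share 1 entry of 2.14 and 0.0101 FPKM. These are named after their values were seen. The promoter of Hes5 is the one printed above with 2 Rbpj cores. Gm20421, a transcript annotated on the opposite strand over Hes5, had 1.51 FPKM in Hb9 control MNs and was listed at 0 FPKM in A2 SMA MNs. Like any symbol at 0 FPKM in a genotype, Gm20421 has no ratio and is not among the 15784 that were ranked. Use of strand in the counting is not stated in the sources used here, so reads from Hes5 and from this partner cannot be told apart.

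Hes1, the member with the broadest expression, including in mESCs, kept the largest part of its level among the genes lower by 2-fold. On chromosome 16 (30057154 to 30067888), Hes1 had 53.5 FPKM in control and 26.5 FPKM in SMA MNs. The log2 ratio was -1.02. Of all gene symbols with at least 1 FPKM in either genotype and above 0 in both, 21.8% had a lower ratio than Hes1. These symbols had a median log2 ratio of -0.29 with quartiles of -0.89 and 0.19. Relative to it the log2 ratio of Hes1 was -0.73, which is no longer 2-fold. Hes5 stood at -7.26 on this relative scale.

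Hes6, the member that opposes Hes1 and marks differentiating neurons, had the highest level of the family in Hb9 control MNs. It lies on chromosome 1 from 93308060 to 93310615. Hes6 had 103 FPKM in control and 22.3 FPKM in SMA MNs, a log2 ratio of -2.21 and a 4.63-fold difference. Thus the antagonist of Hes1 was also lower in A2 SMA MNs, by a larger factor than Hes1 itself. The Hes6 to Hes1 ratio of FPKM was 1.93 in Hb9 control MNs and 0.842 in A2 SMA MNs.

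Of the Hey genes, which act with or in place of Hes genes downstream of Notch, only Hey1 was abundant. Hey1, on chromosome 3 from 8663362 to 8667039, had 71.9 FPKM in control and 7.51 FPKM in SMA MNs. The log2 ratio was -3.26, a 9.57-fold difference. Heyl (chromosome 4, 122910799 to 122927118) had 3.94 and 0.944 FPKM, a log2 ratio of -2.06. Hey2 (chromosome 10, 30552165 to 30562607) had 2.35 and 0.608 FPKM, a log2 ratio of -1.95. The 3 Hey genes thus all had less transcript in A2 SMA MNs, and Heyl and Hey2 were under 1 FPKM there.

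The other 3 Hes genes were scarce. Hes2, a further family member (chromosome 4, 151532976 to 151536578), had 3.75 FPKM in control and 0.125 FPKM in SMA MNs, a log2 ratio of -4.91 that became -2.08 with a pseudocount of 1 FPKM. Hes7, the clock gene (chromosome 11, 68933556 to 68937557), had 0.444 and 0.364 FPKM. Hes3 (chromosome 4, 151660081 to 151665771) had 0.0616 and 0.110 FPKM. Both Hes7 and Hes3 were thus under 1 FPKM in each genotype, and Cuffdiff left both untested with the status NOTEST. The log2 ratios were -0.29 for Hes7 and 0.83 for Hes3. Hes3 was the only member with a higher value in A2 SMA MNs.

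**Figure D1:**
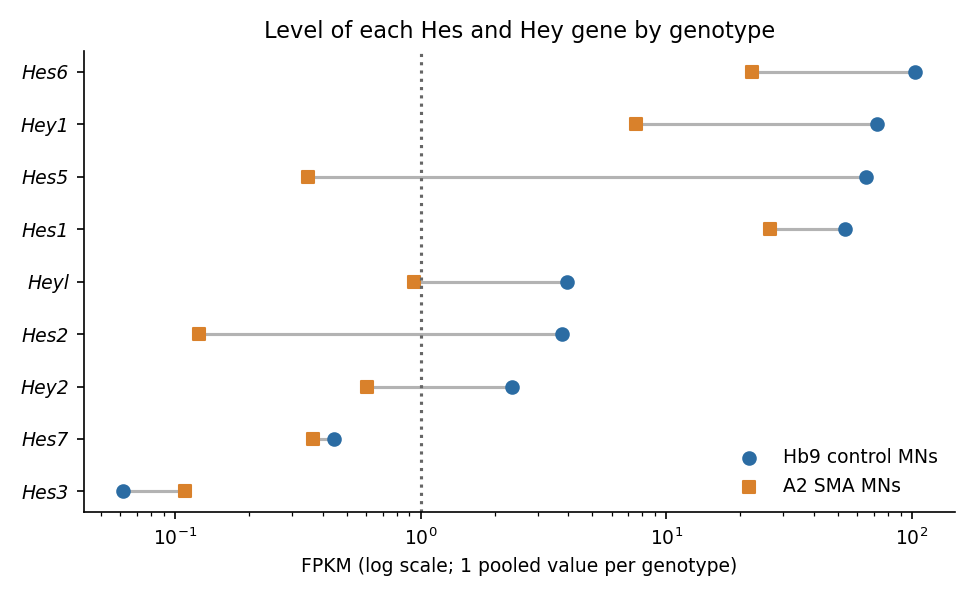
FPKM (log axis) of the 9 Hes and Hey genes, with a circle for Hb9 control MNs and a square for A2 SMA MNs, each 1 pooled value without an error bar, and a dotted line at 1 FPKM. Hes5 spans 65.3 to 0.349 FPKM, Hes1 stays between 53.5 and 26.5 FPKM, and Hes7 and Hes3 lie under the dotted line in both genotypes.

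A filter of at least 1 FPKM in either genotype, and above 0 in both, kept 7 of the 9 genes and left out Hes3 and Hes7. Only Hes1, Hes6 and Hey1 had at least 1 FPKM in both genotypes. The other 4 (Hes2, Hes5, Hey2 and Heyl) passed through Hb9 control MNs alone and so had to be lower in A2 SMA MNs. The same holds below for listed genes under 1 FPKM in A2 SMA MNs alone, such as Dll4, Neurog2, Olig2, Lhx3, Lhx4 and Chat. The median log2 ratio was -2.21 over the 7 genes and -2.06 over all 9, beside -0.29 over the 15784 gene symbols that passed the same filter and -0.31 over all 21564 above 0 FPKM. With the filter, 22.2% of gene symbols were lower by at least 2-fold, 8.81% were lower by at least 4-fold and 6.78% were higher by at least 2-fold. Of the 9 genes, 5 (Hes2, Hes5, Hes6, Hey1 and Heyl) were lower by at least 4-fold, and relative to the median of all symbols Hes6 (-1.93) and Heyl (-1.77) were not. With ratios taken relative to the median of all symbols, 6 of the 9 remained lower by at least 2-fold, without Hes1.

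**Figure D2:**
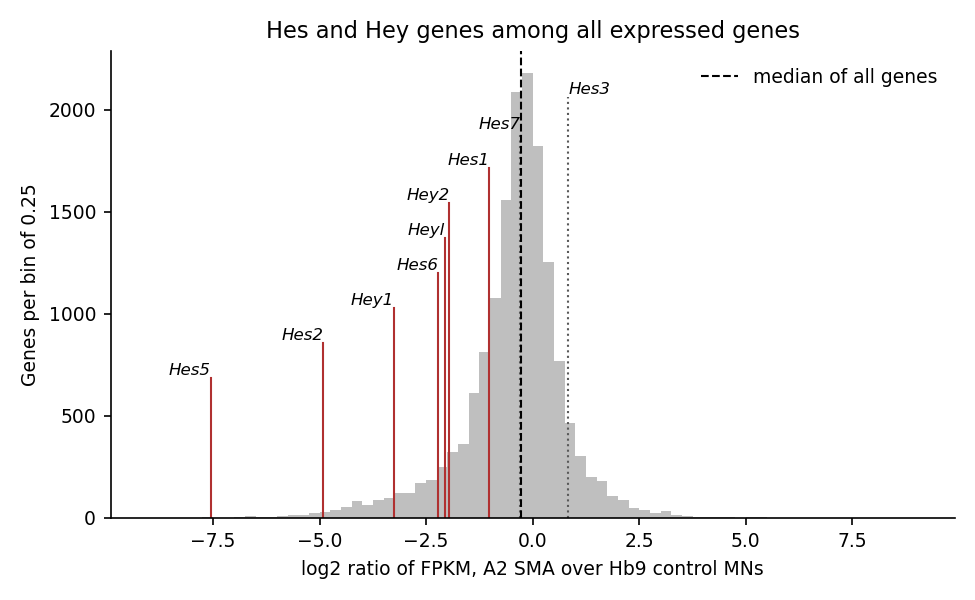
Histogram of the log2 ratio of FPKM (A2 SMA over Hb9 control MNs) for the 15784 gene symbols with at least 1 FPKM in either genotype and above 0 in both; the dashed line is their median of -0.29. Solid red lines mark the 7 genes that passed the filter, from Hes5 at -7.55 to Hes1 at -1.02, and dotted lines mark Hes7 and Hes3, which did not pass and are not in the histogram.

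The family as a whole had less transcript, and its make-up was different. The summed level of the 9 genes was 304 FPKM in control and 58.7 FPKM in SMA MNs, a 5.18-fold difference. In Hb9 control MNs the order was Hes6, Hey1, Hes5 and Hes1, which made up 33.9%, 23.6%, 21.4% and 17.6% of the sum. In A2 SMA MNs the order was Hes1, Hes6 and Hey1, with 45.0%, 37.9% and 12.8%, followed at under 1 FPKM each by Heyl, Hey2, Hes7, Hes5, Hes2 and Hes3. Hes5 made up 0.594% there. The Hes1 to Hes5 ratio of FPKM was 0.819 in Hb9 control MNs and 75.8 in A2 SMA MNs. Scaling a genotype as a whole changes neither these shares nor this ratio. The 75.8 and the 0.594% rest on a Hes5 level of 0.349 FPKM in A2 SMA MNs, whose counting error is unknown. Without a spread between samples it is unknown which neighbours in either order differ.

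**Figure D3:**
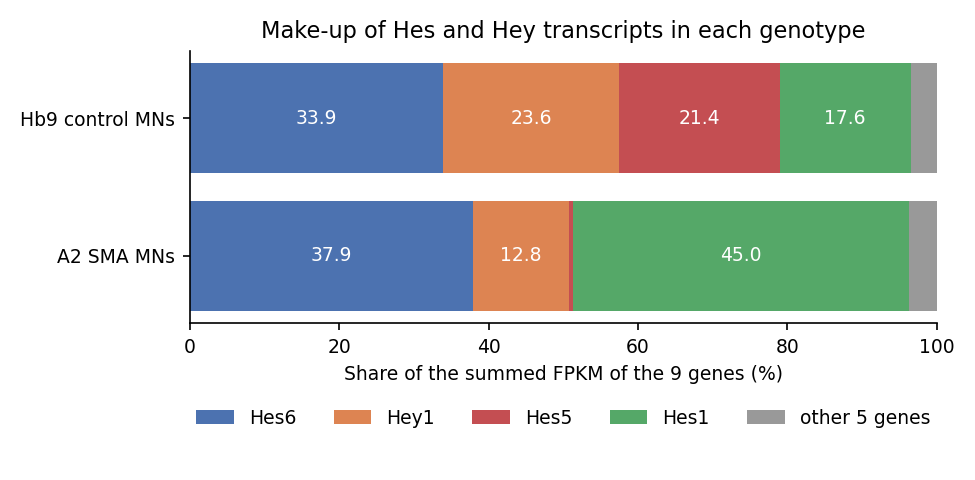
Share of the summed FPKM of the 9 genes (percent) taken by Hes6, Hey1, Hes5, Hes1 and the other 5 genes together, as 1 stacked bar per genotype. Hes1 takes 17.6% in Hb9 control MNs and 45.0% in A2 SMA MNs, whereas Hes5 takes 21.4% and 0.594%.

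The genes beside each family member were compared with it. The 18 nearest gene symbols with at least 1 FPKM on either side of the 9 genes had a median log2 ratio of -0.20, with 2 lower (Stmn2 and Per2) and 2 higher (Gm16761 and Gm17516, both beside Hes1) by at least 2-fold. Gm16761 (0.441 and 2.09 FPKM) and Gm17516 (0.380 and 1.77 FPKM) reached 1 FPKM in SMA MNs alone and so had to be higher there. Pank4, a pantothenate kinase family gene 1752 bp from Hes5, had 43.9 FPKM in control and 23.6 FPKM in SMA MNs (log2 ratio -0.90). Acot7, an acyl-CoA thioesterase gene 15665 bp from Hes2, had 139 and 91.3 FPKM (-0.61). Ilkap, a phosphatase gene 12677 bp from Hes6, had 61.6 and 49.9 FPKM (-0.30). The lowest ratio among the neighbours was -1.63 for Stmn2, a neuronal tubulin-binding protein gene 101753 bp from Hey1. The log2 ratios of Hes5, Hes2, Hey1, Hes6, Heyl, Hey2 and Hes1 were below those of both neighbours, which is a description only, since these are the genes already called lower. Hes2, Hes3, Hes5 and Heyl all lie on chromosome 4, where their log2 ratios ranged from -7.55 to 0.83.

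**Figure D4:**
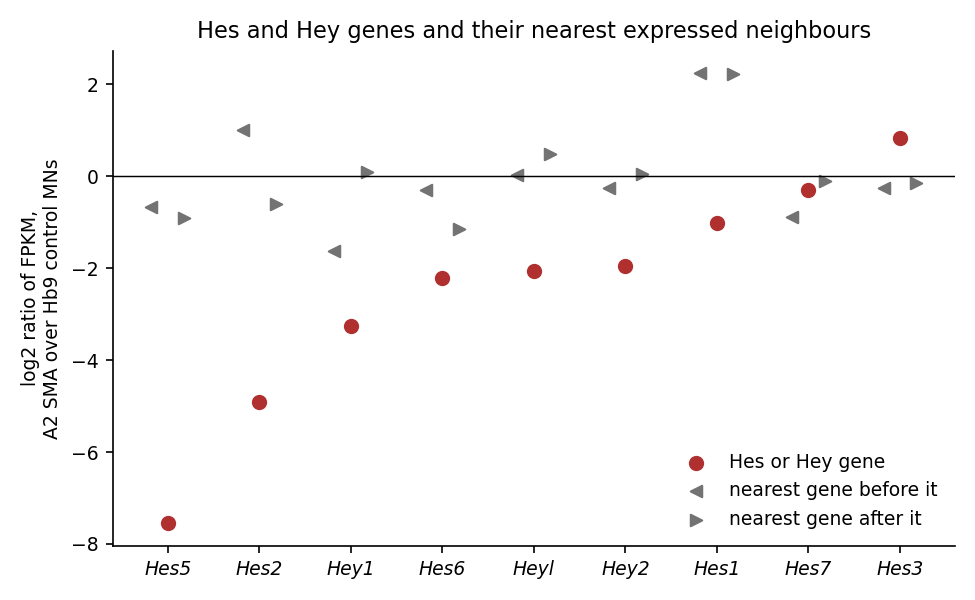
Log2 ratio of FPKM (A2 SMA over Hb9 control MNs) of each Hes and Hey gene (red circle) and of the nearest gene with at least 1 FPKM before and after it (grey triangles). The circle lies below both triangles for Hes5, Hes2, Hey1, Hes6, Heyl, Hey2 and Hes1, and not for Hes7 and Hes3.

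Genes whose pair of levels was most like that of a family member were found by their distance in log2 FPKM over the 2 genotypes. With only 2 values a gene, many genes can have a like pattern. The 3 nearest to Hes1 were Tcf4, Tef and Rian, at distances of 0.041 to 0.076. Ddr1 and Sbk1 were close to Hes6 (0.087 and 0.18), both with the status FAIL, which marks genes whose comparison Cuffdiff could not complete. Ankrd13b, Ncam1 and Syt11 were nearest to Hey1 (0.067 to 0.12). Hes5 stood more alone, the nearest being Glra1, the glycine receptor α1 subunit gene, at a distance of 0.95 (34.7 and 0.291 FPKM). It was followed at 1.10 by an entry that holds 2610017I09Rik and RP23-71K9.1.1.

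Upstream in the Notch pathway, the ligands were lower in A2 SMA MNs. Of the 5 ligand genes, 4 were lower by at least 2-fold, and the median log2 ratio was -3.40. Dll1, a ligand of newborn neurons, had 91.2 FPKM in control and 8.65 FPKM in SMA MNs. Dll3 (82.5 and 4.52 FPKM), Dll4 (8.88 and 0.414 FPKM) and Jag1 (20.7 and 2.66 FPKM) were also lower, whereas Jag2 had 50.4 and 32.9 FPKM, a log2 ratio of -0.61, in an entry shared with another symbol. Hes5 thus differed by a larger factor than any ligand, and Hes1 by a smaller factor than each of them but Jag2.

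The receptors on which these ligands act were measured too. Of the 4 receptor genes, Notch1 (139 and 24.3 FPKM, log2 ratio -2.52) and Notch3 (40.3 and 19.9 FPKM, -1.02) were lower by at least 2-fold. Relative to the median of all symbols only Notch1 was. Notch2 had 36.3 FPKM in control and 19.2 FPKM in SMA MNs, and Notch4 had 4.42 and 5.20 FPKM. Of 8 genes for receptor cleavage that passed the filter, 2 (Aph1b and Adam10) were lower and 1 (Aph1c) was higher by at least 2-fold, with a median log2 ratio of -0.72. Aph1b and Aph1c are near-identical copies, so their split of reads is uncertain, and Aph1c (0.721 and 1.63 FPKM) passed through SMA MNs alone and so had to be higher. Adam10, the protease that cuts the receptor after ligand binding, had 77.6 and 37.7 FPKM (-1.04), which is under 2-fold relative to the median of all symbols. Ncstn, a subunit of γ-secretase, had 89.9 and 47.2 FPKM (-0.93).

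Of 16 genes that modify ligands or receptors, 7 were lower and none was higher by at least 2-fold, with a median log2 ratio of -0.76. Relative to the median of all symbols 5 were lower. Lfng, a fringe glycosyltransferase that alters ligand preference, had 41.8 FPKM in control and 2.05 FPKM in SMA MNs (log2 ratio -4.35), and its promoter held 1 Rbpj core. The related Mfng had 49.1 and 6.36 FPKM (-2.95). No Rbpj core was found for any other gene listed as ligand, receptor, modifier or other Notch target, where a promoter sequence was matched. At least 1 core occurred in 6.38% of all promoters. Dtx4, a ubiquitin ligase of the Deltex family, had 69.3 and 4.66 FPKM (-3.89). By contrast, Mib2, a ubiquitin ligase that acts on ligands, had 49.3 and 45.7 FPKM (-0.11).

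The genes of the Rbpj complex, through which Notch reaches the Hes and Hey promoters, differed little as a group. Of 13 genes, 3 (Maml3, L3mbtl3 and Maml2, the last in an entry shared with another symbol) were lower and none was higher by at least 2-fold, and the median log2 ratio was -0.14, which is above that of all symbols. Rbpj itself had 10.9 FPKM in control and 16.7 FPKM in SMA MNs, a log2 ratio of 0.61. Maml3, a coactivator of the Mastermind family, had 19.5 and 3.73 FPKM (-2.38), whereas the corepressor Ncor1 had 224 and 203 FPKM (-0.14). Of 6 genes of the Groucho family, counting the short member Aes, none was lower and Tle6 was higher by at least 2-fold (17.1 and 51.5 FPKM, log2 ratio 1.59). Tle3 had 139 and 83.6 FPKM (-0.74). Dll3, Jag2, Notch2, Notch3, Adam10, Ncor1, Tle3, Tcf12, Gli1, Ptch1, Per2, Stmn2 and Lhx4 carry the status FAIL.

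Other known targets of Notch went with the Hes and Hey genes in direction. All 5 that were listed were lower by at least 2-fold, with a median log2 ratio of -3.95. Nrarp, a feedback inhibitor of Notch, had 52.7 FPKM in control and 2.62 FPKM in SMA MNs (log2 ratio -4.33). Fabp7, a fatty acid binding protein of radial glia that is also on the progenitor marker list, had 553 and 5.52 FPKM (-6.65). Sox9, a progenitor and glial factor, had 75.4 and 4.87 FPKM (-3.95). Ccnd1, the cyclin of the G1 phase, had 93.8 and 36.8 FPKM (-1.35), which is nearer to the difference of Hes1.

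Proneural and related neural bHLH genes, some of which Hes1 and Hes5 are known to repress, were lower as well. All 7 that passed the filter were lower by at least 2-fold, with a median log2 ratio of -4.97. Neurog2, which specifies MN progenitors, had 19.9 FPKM in control and 0.225 FPKM in SMA MNs (log2 ratio -6.47). Olig2, the progenitor factor of MNs, had 32.1 and 0.704 FPKM (-5.51). Atoh1, the other gene of the list, did not pass the filter (0.0607 and 0.185 FPKM). All 4 Id genes, whose products sequester E proteins, were lower by at least 2-fold, with a median of -1.42, and 3 of them (not Id2) were so relative to the median of all symbols. Id3 had 124 and 50.5 FPKM, and Id4, the lowest of them at -3.13, had 23.4 and 2.68 FPKM. Of 2 other repressors with an Orange domain that passed the filter, Bhlhe41 was lower by at least 2-fold (8.59 and 3.36 FPKM) and Bhlhe40 had 65.6 and 40.8 FPKM. Of the 3 E protein genes only Tcf12 was lower by at least 2-fold (88.9 and 38.9 FPKM), and relative to the median of all symbols none was.

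The BMP and Shh pathways also act on Hes and Id genes. Of 12 of their genes, 3 (Bmpr1b, Smo and Smad1) were lower and 2 (Gli1 and Gli2) were higher by at least 2-fold, with a median log2 ratio of -0.46. Relative to the median of all symbols only Bmpr1b was lower by at least 2-fold. Gli1, a transcriptional target of Shh signaling, had 8.86 FPKM in control and 17.9 FPKM in SMA MNs. Ptch1, the receptor of Shh, had 129 and 104 FPKM. Over all 85 pathway genes that passed the filter, 39 were lower and 4 (Aph1c, Tle6, Gli1 and Gli2) were higher by at least 2-fold, beside 22.2% and 6.78% of all symbols, and the median log2 ratio was -0.93. Relative to the median of all symbols 31 of the 85 were lower, and with scaling to the upper quartile 26 were lower and 7 were higher. The shares lower in the cleavage, Rbpj complex and BMP and Shh lists were near that of all symbols. The study singled out Notch signaling on these same samples, so the counts of the pathway lists are not independent evidence of their direction.

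**Figure D5:**
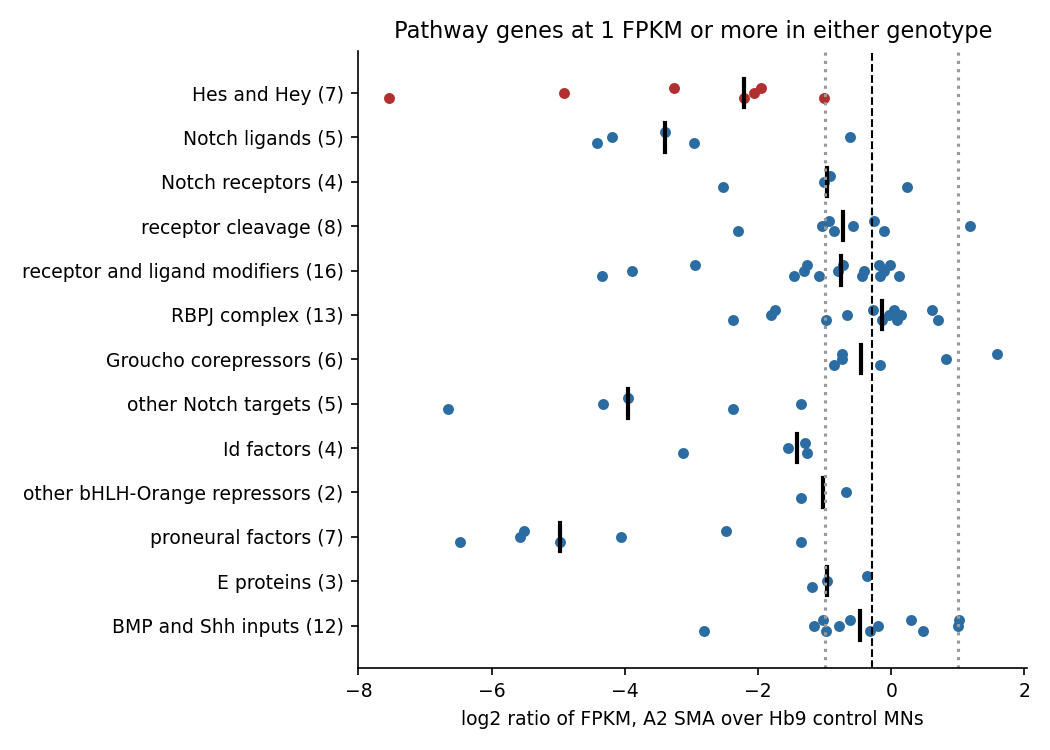
Log2 ratio of FPKM (A2 SMA over Hb9 control MNs) of each gene with at least 1 FPKM in either genotype, by list, with the number of genes in parentheses. Thick black bars are list medians, dotted lines mark 2-fold and the dashed line is the median of all symbols; the ligands (median -3.40), other Notch targets (-3.95) and proneural factors (-4.97) lie left of the Hes and Hey genes (-2.21), and the Rbpj complex (-0.14) lies near the dashed line.

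Markers of cell types were read beside these results. Smn1, the targeted gene, had 137 FPKM in control and 5.26 FPKM in SMA MNs. Mnx1, which encodes Hb9, had 41.2 and 44.2 FPKM, but of 7 MN markers that passed the filter 6 were lower by at least 2-fold, 3 of which (Lhx3, Lhx4 and Chat) passed through Hb9 control MNs alone. Relative to the median of all symbols 5 of the 7 were lower by at least 2-fold. Lhx3 had 0.348 FPKM and Lhx4 0.501 FPKM in A2 SMA MNs, and Chat had 15.5 FPKM in control and 0.344 FPKM in SMA MNs. Slc5a7 was under 1 FPKM in both genotypes (0.387 and 0.0900 FPKM) and did not pass the filter. Lhx3 and Lhx4 are LIM factors of MN specification, and Chat and Slc5a7 serve cholinergic transmission. The summed FPKM of the neural progenitor markers, where Hes1 and Hes5 are normally expressed, was 2579 in Hb9 control MNs (22.4 to 1436 per gene) and 467 in A2 SMA MNs (5.01 to 197 per gene). Of 9 such genes 7 were lower by at least 2-fold, whereas Sox2 had 179 and 197 FPKM and Pax6 had 22.4 and 21.4 FPKM. Vim alone made up 1436 and 178 FPKM of the sums. All 8 pan-neuronal and all 6 floor plate markers were lower by at least 2-fold, with summed FPKM of 1300.0 and 138 for the former and of 726 and 106 for the latter. Relative to the median of all symbols all 8 pan-neuronal and 5 of the 6 floor plate markers were. All 10 mESC markers were higher by at least 2-fold, with sums of 306 FPKM (2.76 to 98.3 per gene) in Hb9 control MNs and 1956 FPKM (9.92 to 775 per gene) in A2 SMA MNs. Markers were also summed for other tissues in which Hes and Hey genes act. Markers of presomitic mesoderm summed to 23.1 and 38.9 FPKM in control and SMA MNs, but the higher sum came from Tcf15 (10.1 and 32.1 FPKM). Of 4 that passed the filter 2 (Meox1 and Tbx6) were lower and 1 was higher by at least 2-fold, with a median log2 ratio of -0.32. Markers of endothelium summed to 39.5 and 82.0 FPKM, of which Pecam1, a gene that mESCs also express, made up 21.8 and 68.7 FPKM. Of 7 that passed 3 were lower and 2 were higher by at least 2-fold, with a median of -0.22. Relative to the median of all symbols 2 were lower and 3 were higher. Of the higher ones Cdh5 (0.796 and 2.33 FPKM) passed through SMA MNs alone and so had to be higher. Markers of fibroblasts summed to 68.8 and 35.6 FPKM, with 5 of 8 lower and 1 higher by at least 2-fold, and 2 lower relative to the median of all symbols. The 1 higher fibroblast marker passed through SMA MNs alone and so had to be higher. None of the markers was at 0 FPKM in either genotype. The part of these cell types in the differences of the Hes and Hey genes was not tested.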

How the data were processed

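RNA from 3 samples per genotype was sequenced. Per the labels and the study's methods, the authors checked reads with FastQC 0.10.1, trimmed them with CutAdapt, mapped them to NCBI m37 with TopHat 2.04 and quantified them with Cufflinks and Cuffdiff. The deposited FPKM values are 1 per gene or locus and genotype, pooled by the authors, so the table holds neither the reads nor the spread per sample. The table's columns of fold changes, test statistics, p-values and q-values hold the authors' own comparison and were not used. The status column was read only as a flag.

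The 41945 entries were split at commas into 34433 gene symbols, and the entry with the highest FPKM was kept. Each of the 9 genes had a single entry. Symbols that share an entry are counted separately. Log2 ratios were taken without a pseudocount, for symbols above 0 FPKM in both genotypes, and a call needed a 2-fold difference. Table starts were moved to 1-based positions. Promoters were searched for exact matches on both strands. The strand of Gm20421 came from GENCODE M21. Python 3.11.15, numpy 2.4.6, pandas 2.3.3 and matplotlib 3.10.9 were used.

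The members and lists were chosen with earlier results of these data known. Named are all 9 genes, their neighbours and nearest genes, and of each list at most the 5 most abundant genes and any pathway gene that differed 4-fold. Rbpj, Atoh1, Pax6, Tbx6, Chat, Slc5a7, Aph1c, Maml2, L3mbtl3, Smad1, Gli1 and Gli2 were named after their values were seen. Alternatives were other scalings, pseudocounts, filters, folds and entries. Sox1, Slc18a3, Tubb3 and Map2 were not analysed here, and some genes that the rule selects are not reported here.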

Additional observations from a re-analysis of the deposited data

How the results depend on the processing

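No paired analysis was possible because the table gives 1 value per genotype, and for the same reason no sample could be left out in turn. Values were counted as moved beyond 1.5 times, and 97 of 109 alternative values were within it. Many of the 97 could not have moved. Each scaling shifted all member ratios by less than this factor. Summing entries or leaving out those with status FAIL left every member unchanged, as each had a single entry and none was FAIL. The count is thus no measure of robustness. No member's ratio changed direction under any alternative except that of Hes7, which was 0.11 when scaled to the upper quartile. A pseudocount of 0.1 FPKM moved the log2 ratio of Hes2 to -4.10. A pseudocount of 1 FPKM moved those of Hes2 to -2.08, Hes3 to 0.064, Hes5 to -5.62, Hey2 to -1.06 and Heyl to -1.34. A filter of 5 FPKM left 4 genes (Hes1, Hes5, Hes6 and Hey1), all lower by at least 2-fold. Pathway genes higher by at least 2-fold numbered 7 when scaled to the upper quartile and 1 with a pseudocount of 1 FPKM. At 1.5-fold 7 were higher, and at 4-fold 22 were lower and 0 higher. Scaling to the median of all symbols removed a log2 shift of -0.29, the upper quartile one of -0.40 and 3 reference genes (Gusb, Pgk1, Rpl13a) one of -0.14. Hes1 was then lower by less than 2-fold, as it was with a pseudocount of 1 FPKM (-0.99). Low values such as those of Hes2, Hes3 and Hes7 have unknown counting error.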

Other observations

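Beyond the Hes and Hey genes, symbols with a RefSeq promoter sequence were divided by their number of Rbpj cores (GTGGGAA on either strand). The 300 bases around the start were searched, taking the start with the most matches. Symbols without such a sequence, among them Hes1, Hes2, Hes3, Hey1 and Heyl, were left out. The rest were filtered at 1 FPKM in either genotype and above 0 in both. Of these, 21.8% of 9212 without a match were lower by at least 2-fold in A2 SMA MNs, beside 25.4% of 712 with 1 match and 31.2% of 32 with 2 or more. The shares higher by at least 2-fold were 6.31%, 6.46% and 9.38%. The median log2 ratios were -0.30, -0.32 and -0.38. Hes5 and Hey2 are among the 32 symbols. These shares are a description of 1 pooled value per genotype and were not tested.

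Some pathway genes had the opposite sign to Hes5. Rbpj had a log2 ratio of 0.61 and Notch4 one of 0.23, and higher values were also found for the Shh effectors Gli1 and Gli2, both at 1.01, although Shh itself had 67.2 FPKM in control and 12.6 FPKM in SMA MNs. Tcf15, a bHLH gene of the presomitic list, had 10.1 and 32.1 FPKM, whereas Meox1 of the same list had 10.1 and 3.58 FPKM.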
